A study of Mus musculus with 21 samples.

Results

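The genes described here are 10 members of the NOTCH pathway: 4 receptors (Notch1, Notch2, Notch3 and Notch4), 3 ligands (Jag1, Jag2 and Dll1) and 3 transcription factors that are known NOTCH targets (Hes1, Hey1 and Heyl). They were found by matching their symbols, through GENCODE vM21, to the gene IDs of a count table with 55536 IDs, of which 36178 had a count in at least 1 library. All 10 passed the filter on low counts in every fit. RNA with poly(A) tails was sequenced from primary mouse mammary organoids, cultures of mammary epithelia. The ATLD group was homozygous for Mre11 ATLD1, a hypomorphic allele of the nuclease subunit of the MRE11-RAD50-NBS1 DNA repair complex, and was sampled at day 0, day 14 and day 28 after the oncogene neuT was activated. The WT group was wild type at Mre11 and was sampled at the same 3 days. neuT is the activated rat form of Erbb2, a receptor tyrosine kinase, and both genotypes carried it through the same days. No later sample without neuT was analysed here, so time in culture and the oncogene cannot be told apart. Each of the 6 groups had 3 libraries. For replicate 1 of the 3 WT days a second run exists, made in the batch of the ATLD libraries. This makes 21 libraries from 18 samples. Whether replicates are separate animals is not stated, and the p-values therefore describe only how much these samples vary, which may be technical.

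The ATLD libraries held 46331204 to 51757203 counts, the original WT libraries 30905703 to 50879106 and the resequenced WT libraries 46532851 to 48887808. Mre11a lay between 14.1 and 17.1 CPM (counts scaled to library size) in the ATLD libraries, against 42.2 to 58.6 CPM in the WT libraries. All 14 markers of mammary epithelium reached 1 CPM in every library. Long genes had lower relative counts in the ATLD libraries: between the 90th percentile of exonic length (10048 bases) and the 10th (1785 bases), a smooth trend over all genes fell by 0.22 to 0.93 log2 units in each ATLD library and lay at 0.22 to 0.64 in each WT library. GC-rich genes had lower relative counts in 3 original WT libraries, day 14 replicates 1 and 3 and day 28 replicate 2, in which the same kind of trend over GC content fell by 1.10, 1.07 and 0.84 log2 units, while the other original libraries lay between -0.46 and 0.67. 

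NOTCH receptors are single-pass membrane proteins that are activated by ligands on a neighbouring cell. A ligand of the Jagged or Delta-like type pulls on the receptor, ADAM proteases and then gamma-secretase cut it, and the freed intracellular domain enters the nucleus, where it joins the DNA-binding protein RBPJ and a Mastermind coactivator to switch on genes of the Hes and Hey families. In the mouse mammary gland the pathway is known for directing progenitors towards the luminal lineage, and Notch4 was found as a site where mouse mammary tumour virus integrates in mammary tumours.

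The promoter sequences of the members that the results turn on are shown because the members moved in different directions, and because motifs can be looked for in them. The RefSeq promoter table (GRCm38.p6) held 8 windows for 7 of the 10 members, all receptors or ligands, and none for the targets Hes1, Hey1 and Heyl. The stretches below lie before the start of each gene as GENCODE gives it, are written 5′ to 3′ on the strand of the gene, and carry matches to the GC box (GGGCGG or its reverse complement CCGCCC) in capitals. They are Jag1 at chr2:137116645-137116770 on the minus strand, Dll1 at chr17:15376933-15377182 on the minus strand, Notch3 at chr17:32166891-32167140 on the minus strand and Notch4 at chr17:34564045-34564267 on the plus strand.
Jag1: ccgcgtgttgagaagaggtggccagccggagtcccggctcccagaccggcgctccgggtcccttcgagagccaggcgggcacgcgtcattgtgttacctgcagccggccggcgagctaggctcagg
Dll1: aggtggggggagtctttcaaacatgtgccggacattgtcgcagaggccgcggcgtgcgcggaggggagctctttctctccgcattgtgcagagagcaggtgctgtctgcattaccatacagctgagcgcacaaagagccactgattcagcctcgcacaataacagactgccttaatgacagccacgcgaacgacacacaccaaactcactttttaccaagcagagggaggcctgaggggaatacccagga
Notch3: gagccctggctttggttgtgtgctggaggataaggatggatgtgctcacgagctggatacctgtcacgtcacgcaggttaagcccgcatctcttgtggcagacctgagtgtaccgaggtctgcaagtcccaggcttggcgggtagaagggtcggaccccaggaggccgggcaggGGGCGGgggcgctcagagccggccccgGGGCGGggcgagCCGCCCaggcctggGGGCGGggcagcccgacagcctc
Notch4: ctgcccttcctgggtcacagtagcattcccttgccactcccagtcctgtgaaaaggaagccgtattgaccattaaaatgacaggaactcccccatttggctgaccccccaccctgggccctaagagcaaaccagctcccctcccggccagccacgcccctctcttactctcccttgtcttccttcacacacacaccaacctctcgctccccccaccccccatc
Over whole windows of 250 bases, 4 of the 8 member windows held a GC box, those of Notch1, Notch2, Notch3 and Jag2, with 19 matches between them, against 32.7% of all 32851 windows. The core letters of the RBPJ motif, TGGGAA on either strand, were in none of the 8 windows and in 21.6% of all windows. The palindrome CACGTG, the class B E-box that HES and HEY proteins can bind, was likewise in none of the 8 and in 6.0% of all. Since only the GC box was matched, no match of one motif overlaps that of another. No promoter of the targets Hes1, Hey1 and Heyl was searched for these motifs. A match describes letters only.

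Per kilobase of exon, the targets Hes1 and Hey1 were among the most abundant members and Heyl and Notch4 the least. In ATLD organoids at day 28, Hey1 averaged 87.0 ± 4.0 CPM per kilobase (SD, n = 3), Hes1 62.7 ± 8.5 and Dll1 28.0 ± 4.7, and the ranges of these neighbours did not overlap. In WT organoids at day 28, Jag1 averaged 38.8 ± 1.3 CPM per kilobase, Hes1 38.7 ± 2.2 and Hey1 36.1 ± 2.4 (SD, n = 3), with overlapping ranges. At day 0 the highest member was Hes1 in ATLD organoids, at 48.4 ± 3.9 CPM per kilobase, and Hey1 in WT organoids, at 57.4 ± 3.1 (SD, n = 3 each), each without overlap with the next member. Heyl and Notch4 stayed between 0.0887 and 0.352 CPM per kilobase in all 6 groups, which is 25 to 92 counts per library for Heyl and 21 to 87 for Notch4. In bulk RNA such as this, fewer cells of a type and less RNA per cell cannot be told apart.

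**Figure D1:**
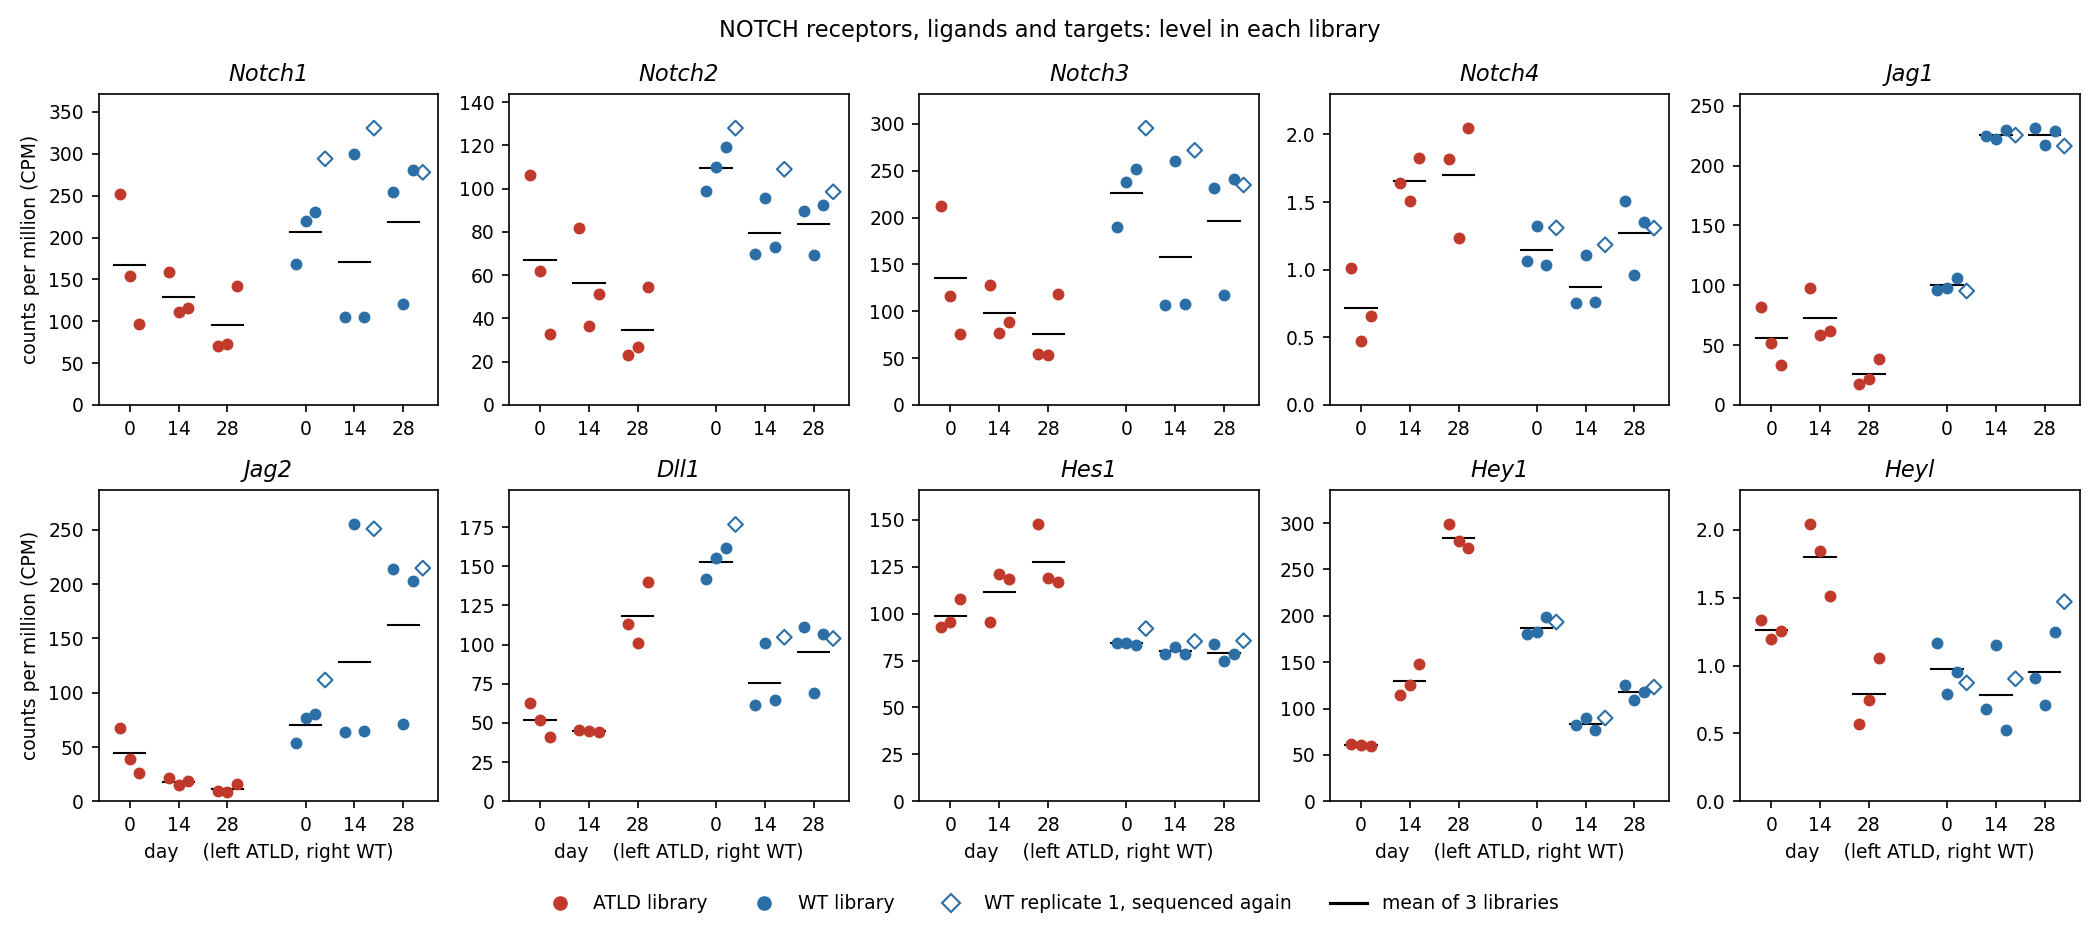
Level of each of the 10 members in CPM (y axis, from 0) by genotype and day (x axis), with ATLD in red left of WT in blue; points are libraries, open diamonds are WT replicate 1 sequenced again, and lines are means of 3 replicates. Hey1 is highest in the ATLD libraries of day 28 (273 to 299 CPM), Jag1 is low in the same libraries (17.5 to 38.0 CPM), and the WT libraries of day 14 spread widely for Notch1, Notch3 and Jag2.

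Hey1 and Hes1 are basic helix-loop-helix repressors. Hey1 (ENSMUSG00000040289, chromosome 3, 8663359 to 8667256, minus strand, GRCm38) moved in opposite directions in the 2 genotypes. In ATLD organoids it had 61.3, 60.3 and 59.1 CPM at day 0, 115, 126 and 148 CPM at day 14, and 299, 281 and 273 CPM at day 28. WT organoids had 180.2, 183 and 199 CPM at day 0, 82.0, 90.1 and 77.2 CPM at day 14, and 126, 110 and 118 CPM at day 28. The resequenced replicate 1 gave 193, 89.8 and 123 CPM. The ATLD libraries of the 3 days do not overlap and lie higher at each later day, whereas the WT libraries are highest at day 0. In ATLD organoids Hey1 was 1.10 ± 0.10 higher at day 14 than at day 0 on the log2 scale (SE, adjusted p = 1.46e-06, edgeR) and 2.24 ± 0.11 higher at day 28 (adjusted p = 5.44e-10). In WT organoids it fell by 1.17 ± 0.10 at day 14 (adjusted p = 8e-08) and by 0.67 ± 0.10 at day 28 (adjusted p = 6.13e-05). The rise at day 28 against day 14 in WT organoids was 0.50 ± 0.10 (adjusted p = 0.0206). That call was lost without any one of WT day 14 replicate 1 or 3 or WT day 28 replicate 1 or 3 (log2 0.44 to 0.49, adjusted p 0.111 to 0.164). The change since day 0 differed between the genotypes by 2.28 ± 0.14 at day 14 and by 2.91 ± 0.14 at day 28 (adjusted p = 2.71e-09 and 1.43e-10). Hey1 was lower in ATLD than in WT organoids at day 0, by a log2 difference of -1.70 ± 0.10 (adjusted p = 4.09e-10), and higher at both later days. These later differences were 0.56 ± 0.10 for day 14 and 1.20 ± 0.11 for day 28 (adjusted p = 0.000146 and 1.5e-08). Among the libraries of the second sequencing batch alone, 3 ATLD libraries against 1 WT library a day, these differences were -1.64, 0.59 and 1.24 (adjusted p = 8.28e-06, 0.0089 and 7.75e-05). With GC and length offsets the day 14 difference was 0.30 (adjusted p = 0.00162).

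Hes1 (ENSMUSG00000022528, chromosome 16, 30064384 to 30067796, plus strand) varied least of the targets. In ATLD organoids it had 92.9, 95.3 and 108 CPM at day 0, 95.5, 121 and 118 CPM at day 14, and 148, 119 and 117 CPM at day 28. In WT organoids it stayed between 74.6 and 84.6 CPM in the 9 original libraries and between 85.2 and 92.0 CPM in the 3 resequenced ones. Every ATLD library lay above every WT library of its day. In ATLD organoids Hes1 was 0.37 ± 0.11 higher on the log2 scale at day 28 than at day 0 (SE, adjusted p = 0.0157). The call was lost without ATLD day 0 replicate 1 or 2 or ATLD day 28 replicate 1 (log2 0.26 to 0.35, adjusted p 0.0584 to 0.102). In WT organoids its changes were -0.08 ± 0.11 at day 14 and -0.09 ± 0.11 at day 28 (adjusted p = 0.653 and 0.635). Between the genotypes, the change of Hes1 since day 0 differed by 0.47 ± 0.16 at day 28 (adjusted p = 0.0321), and that call was lost without any one of 8 libraries (0.35 to 0.47, adjusted p 0.0613 to 0.0989). Against WT, Hes1 in ATLD organoids did not pass at day 0 (0.11 ± 0.11, adjusted p = 0.414). It was higher by 0.37 ± 0.11 at day 14 (adjusted p = 0.0076) and by 0.58 ± 0.11 at day 28 (adjusted p = 0.000222). Without WT day 14 replicate 1 the day 14 difference was 0.35 (adjusted p = 0.084), and in the second sequencing batch alone the differences at the 3 days were 0.15, 0.46 and 0.62 (adjusted p = 0.552, 0.0657 and 0.0198). With offsets for GC content and length, the differences were -0.31 at day 0, -0.10 at day 14 and 0.14 at day 28 (adjusted p = 0.00487, 0.324 and 0.175). The direction of Hes1 between the genotypes thus turned with that scaling at day 0 and day 14.

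Heyl (ENSMUSG00000032744, chromosome 4, 123233556 to 123249875, plus strand), a further repressor of the HEY family, was low throughout. In ATLD organoids it had 1.33, 1.20 and 1.25 CPM at day 0, 2.04, 1.85 and 1.51 CPM at day 14, and 0.569, 0.743 and 1.06 CPM at day 28. In WT organoids it lay between 0.526 and 1.25 CPM in the original libraries and between 0.873 and 1.47 CPM in the resequenced ones. The ATLD libraries of day 14 lie above all other ATLD and WT libraries. In ATLD organoids Heyl was lower at day 28 than at day 14 by a log2 change of -1.19 ± 0.28 (SE, adjusted p = 0.00683). At day 14 it was 0.98 ± 0.30 higher in ATLD than in WT organoids (adjusted p = 0.0086). This became 0.86 (adjusted p = 0.108) without WT day 14 replicate 1 and 1.06 (adjusted p = 0.0183) in the second sequencing batch alone. At day 28 the difference of -0.64 ± 0.31 did not pass (adjusted p = 0.079), but it passed in that batch alone (-0.86, adjusted p = 0.0371), without ATLD day 28 replicate 3 (-0.90, adjusted p = 0.0265) and without WT day 28 replicate 2 (-0.71, adjusted p = 0.0477). Without ATLD day 28 replicate 3, Heyl was also lower at day 28 than at day 0 in ATLD organoids (-0.94, adjusted p = 0.0368, against -0.68 and adjusted p = 0.0838 with it). Without WT day 14 replicate 2, its change at day 14 differed between the genotypes by 1.20 (adjusted p = 0.0209), against 0.84 with it (adjusted p = 0.152).

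The ligands Jag1 and Jag2 were lower in ATLD than in WT organoids, with the largest difference of the 3 days at day 28, while the difference in Dll1 was largest at day 0. Jag1 (ENSMUSG00000027276, chromosome 2, 137081456 to 137116644, minus strand) had 81.8, 51.5 and 33.7 CPM at day 0, 97.9, 58.1 and 61.6 CPM at day 14, and 17.5, 21.3 and 38.0 CPM at day 28 in ATLD organoids. WT organoids had 95.8, 97.9 and 106 CPM at day 0, 225, 222 and 229.7 CPM at day 14, and 231, 217 and 229 CPM at day 28. The resequenced replicate 1 gave 95.2, 225 and 216 CPM. Every ATLD library lay below every WT library of its day, and the WT libraries of day 14 and day 28 lay more closely together than the ATLD libraries of any day. In ATLD organoids Jag1 did not pass at day 14 (0.38 ± 0.28 on the log2 scale, SE, adjusted p = 0.49), but it fell later. At day 28 it was below day 14 (-1.50 ± 0.29, adjusted p = 0.0017) and below day 0 (-1.12 ± 0.29, adjusted p = 0.00707). The day 28 against day 0 call was lost without ATLD day 0 replicate 1 (-0.74, adjusted p = 0.058). In WT organoids Jag1 rose by 1.17 ± 0.29 at day 14 and by 1.18 ± 0.29 at day 28 (adjusted p = 0.00427 and 0.00488). The change since day 0 differed by -0.79 ± 0.40 at day 14 (adjusted p = 0.19) and by -2.29 ± 0.41 at day 28 (adjusted p = 0.000315). Jag1 was lower in ATLD than in WT organoids by -1.60 ± 0.30 at day 14 and by -3.09 ± 0.31 at day 28 (adjusted p = 0.000121 and 7.35e-08). In the second batch alone these differences were -1.57 and -3.05 (adjusted p = 0.00684 and 6.09e-05). At day 0 it was -0.80 ± 0.30 (adjusted p = 0.0292). It lost its call without ATLD day 0 replicate 2 or 3 or WT day 0 replicate 1 (-0.84 to -0.53, adjusted p 0.0827 to 0.131). It was also lost in the second batch alone (-0.74, adjusted p = 0.179) and with GC and length offsets (-0.65, adjusted p = 0.0514).

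Jag2 (ENSMUSG00000002799, chromosome 12, 112907819 to 112929776, minus strand), the other Jagged ligand, had 67.1, 39.1 and 26.4 CPM at day 0, 21.1, 15.1 and 18.3 CPM at day 14, and 9.97, 8.26 and 16.3 CPM at day 28 in ATLD organoids. For WT organoids the values were 54.1, 76.5 and 80.1 CPM at day 0, 64.2, 255 and 64.3 CPM at day 14, and 214, 71.6 and 203 CPM at day 28. The resequenced WT replicate 1 gave 112, 251 and 215 CPM, so the same day 14 sample read 64.2 CPM in 1 run and 251 CPM in the other. The 3 WT libraries that stand apart in GC trend are the 3 that were low at day 14 and day 28. Changes without these libraries are given below, and the cause of their low values was not tested. In ATLD organoids Jag2 fell by 1.94 ± 0.52 log2 units at day 28 against day 0 (SE, adjusted p = 0.00914), and without ATLD day 0 replicate 1 by 1.51 (adjusted p = 0.0531). At day 14 its change was -1.28 ± 0.51 (adjusted p = 0.128), or -1.10 with GC and length offsets (adjusted p = 0.00684). In WT organoids its change was 0.86 ± 0.50 at day 14 and 1.21 ± 0.50 at day 28 (adjusted p = 0.212 and 0.0933). Without the 3 libraries these were 1.82 and 1.54 (adjusted p = 0.00108 and 0.000896). With GC and length offsets they were 0.93 and 1.02 (adjusted p = 0.00867 and 0.00542). Without WT day 28 replicate 2 alone the day 28 change was 1.57 (adjusted p = 0.0287). Without WT day 14 replicate 2, Jag2 was 1.34 higher at day 28 than at day 14 in WT (adjusted p = 0.0332), against 0.35 with all libraries (adjusted p = 0.766). Between the genotypes, the change of Jag2 since day 0 differed by -2.15 ± 0.71 at day 14 (adjusted p = 0.039) and by -3.16 ± 0.72 at day 28 (adjusted p = 0.00292), and the day 14 value was -1.17 (adjusted p = 0.111) without WT day 14 replicate 2. Jag2 was lower in ATLD than in WT organoids by -1.35 ± 0.53 at day 0, -3.58 ± 0.55 at day 14 and -4.45 ± 0.57 at day 28 (adjusted p = 0.0357, 1.61e-05 and 2.21e-06). The second batch alone gave -1.30, -3.72 and -4.19 (adjusted p = 0.0163, 4.63e-06 and 1.9e-06). With no batch term the day 0 difference was -0.67 (adjusted p = 0.25). The call at day 0 was lost without ATLD day 0 replicate 2 or 3 or WT day 0 replicate 1 or 3 (-1.53 to -1.09, adjusted p 0.0523 to 0.129).

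Dll1 (ENSMUSG00000014773, chromosome 17, 15367354 to 15376872, minus strand), a ligand of the Delta-like type, moved the other way from Jag1. In ATLD organoids it had 62.7, 51.7 and 41.1 CPM at day 0, 45.2, 45.0 and 44.4 CPM at day 14, and 113, 101 and 139.9 CPM at day 28. WT organoids had 142, 155 and 161 CPM at day 0, 61.7, 101 and 64.7 CPM at day 14, and 111, 68.8 and 107 CPM at day 28. A second run of WT replicate 1 had 177, 105 and 104 CPM. The ATLD libraries of day 28 lie above all ATLD libraries of the earlier days, while the WT libraries are highest at day 0. In ATLD organoids Dll1 was 1.19 ± 0.21 higher on the log2 scale at day 28 than at day 0 (SE, adjusted p = 0.000307), and at day 14 its change was -0.21 ± 0.20 (adjusted p = 0.635). In WT organoids it fell by 1.01 ± 0.21 at day 14 (adjusted p = 0.00101) and by 0.68 ± 0.20 at day 28 (adjusted p = 0.0205). The day 28 call was lost without WT day 0 replicate 2 or 3 or WT day 28 replicate 2 (-0.67 to -0.49, adjusted p 0.053 to 0.102). The 3 WT libraries that stand apart in GC trend are the lowest of day 14 and day 28, and the day 14 sample that read 61.7 CPM read 105 CPM when sequenced again. Without these 3 libraries the fall was 0.64 at day 14 and 0.52 at day 28 (-0.64 and -0.52, adjusted p = 0.0248 and 0.0151). Without WT day 14 replicate 2, Dll1 was 0.60 higher at day 28 than at day 14 in WT (adjusted p = 0.0388), against 0.34 ± 0.20 with it (adjusted p = 0.565). The change since day 0 differed between the genotypes by 1.86 ± 0.29 at day 28 (adjusted p = 8.97e-05) and by 0.80 ± 0.29 at day 14 (adjusted p = 0.058). The day 14 difference passed without ATLD day 0 replicate 1 (0.95, adjusted p = 0.0352) or WT day 14 replicate 2 (1.06, adjusted p = 0.00489). Dll1 was lower in ATLD than in WT organoids at day 0 (-1.81 ± 0.22, adjusted p = 2.46e-06) and day 14 (-1.08 ± 0.22, adjusted p = 0.000273). It differed by 0.07 at day 28 (95% interval -0.39 to 0.53, adjusted p = 0.794). The second batch alone gave -1.73, -1.16 and 0.22 (adjusted p = 4.86e-05, 0.000413 and 0.399). Dll1 shares 867 exonic bases with the antisense gene A930024N18Rik, which had 32 to 82 counts per library against 1848 to 8906 for Dll1.

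**Figure D2:**
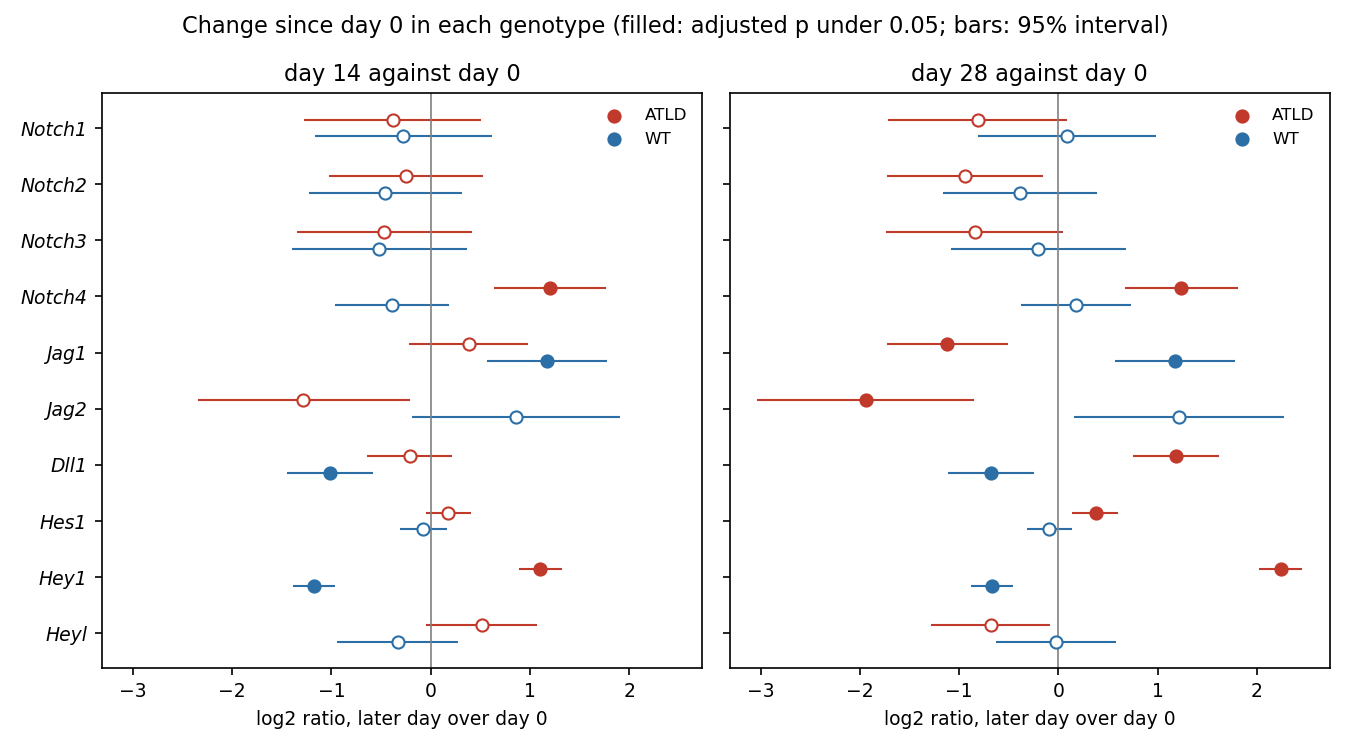
Log2 change since day 0 (x axis) at day 14 (left) and day 28 (right) for the 10 members (rows), ATLD in red above WT in blue, with 95% intervals; filled points have an adjusted p under 0.05. Hey1 lies at 1.10 and 2.24 in ATLD against -1.17 and -0.67 in WT, and Jag1 at day 28 at -1.12 in ATLD against 1.18 in WT.

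The receptors Notch1, Notch2 and Notch3 were lower in ATLD than in WT organoids at day 28, and their spread between replicates was wide. Notch1 (ENSMUSG00000026923, chromosome 2, 26457903 to 26516663, minus strand) had 252, 154 and 96.4 CPM at day 0, 159, 111 and 116 CPM at day 14, and 71.1, 72.9 and 142 CPM at day 28 in ATLD organoids. For WT organoids the values were 169, 219.6 and 231 CPM at day 0, 105, 300.3 and 106 CPM at day 14, and 254, 121 and 281 CPM at day 28. The resequenced replicate 1 had 294, 331 and 278 CPM. The groups overlap at every day, and the WT libraries of day 14 replicates 1 and 3 and day 28 replicate 2 are again the low ones. Against WT, Notch1 in ATLD did not pass at day 0 (-0.89 ± 0.46 on the log2 scale, SE, adjusted p = 0.103). It was lower by -1.12 ± 0.45 at day 14 and by -1.75 ± 0.46 at day 28 (adjusted p = 0.035 and 0.00279). The day 0 value was -1.31 (adjusted p = 0.0292) without ATLD day 0 replicate 1. The day 14 call was lost without ATLD day 14 replicate 2 or 3 or WT day 14 replicate 1 or 2 (-1.09 to -0.88, adjusted p 0.0557 to 0.127). In the second batch alone the differences were -0.77, -1.30 and -1.51 (adjusted p = 0.153, 0.0182 and 0.00846).

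Notch3 (ENSMUSG00000038146, chromosome 17, 32120820 to 32166852, minus strand) had 213, 117 and 76.2 CPM at day 0, 128, 76.8 and 88.9 CPM at day 14, and 53.9, 53.3 and 119 CPM at day 28 in ATLD organoids. The WT libraries had 189.6, 238 and 252 CPM at day 0, 107, 260.4 and 108 CPM at day 14, and 232, 118 and 241 CPM at day 28. The resequenced replicate 1 had 296, 272 and 235 CPM. The same libraries were high and low as for Notch1. Its differences from WT were -1.20 ± 0.45, -1.25 ± 0.44 and -1.81 ± 0.45 at day 0, day 14 and day 28 (SE, adjusted p = 0.0291, 0.0177 and 0.00182). In the second batch alone they were -1.09, -1.41 and -1.61 (adjusted p = 0.0793, 0.0223 and 0.0117). The day 0 call was lost without ATLD day 0 replicate 2 or 3 or WT day 0 replicate 1 (-1.38 to -0.91, adjusted p 0.0865 to 0.118). The day 14 call was lost without ATLD day 14 replicate 2 or 3 or WT day 14 replicate 1 (-1.23 to -1.10, adjusted p 0.0542 to 0.0874). Without WT day 14 replicate 2, Notch3 at day 14 was 1.08 log2 units below day 0 in WT (-1.08, adjusted p = 0.0432), against -0.52 with it (adjusted p = 0.39).

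Notch2 (ENSMUSG00000027878, chromosome 3, 98013527 to 98150361, plus strand) had 106, 62.0 and 32.9 CPM at day 0, 82.0, 36.7 and 51.2 CPM at day 14, and 23.1, 27.0 and 54.5 CPM at day 28 in ATLD organoids. The WT libraries had 99.0, 110.1 and 119 CPM at day 0, 70.03, 95.9 and 72.8 CPM at day 14, and 89.9, 69.3 and 92.3 CPM at day 28. In its second run WT replicate 1 had 128, 109 and 98.6 CPM. At day 28 every ATLD library lay below every WT library, while at day 0 and day 14 the groups overlapped. The lowest WT values of day 14 and day 28 again belong to the 3 libraries that stand apart in GC trend. Without them the ATLD against WT difference was -0.89, -0.87 and -1.52 for the 3 days in order (adjusted p = 0.0528, 0.0626 and 0.00243). Notch2 differed from WT by -0.99 ± 0.39 at day 0, -0.84 ± 0.38 at day 14 and -1.56 ± 0.39 at day 28 (SE, adjusted p = 0.0362, 0.0626 and 0.00188). In the second batch alone the values were -0.89, -0.88 and -1.47 (adjusted p = 0.187, 0.177 and 0.0314). The day 0 call was lost without ATLD day 0 replicate 2 or 3 or WT day 0 replicate 1 or 3 (-1.12 to -0.66, adjusted p 0.0535 to 0.144). The day 14 difference passed without ATLD day 14 replicate 1 (-1.20, adjusted p = 0.0158).

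No change of Notch1, Notch2 or Notch3 since day 0 passed in either genotype in the edgeR fit with TMM scaling and no offset. That fit used all 18 original libraries and the filter on low counts. In WT organoids the Notch2 changes were -0.46 at day 14 and -0.385 at day 28 (adjusted p = 0.382 and 0.535). With the compared groups alone in the fit, both were called, at -0.50 and -0.40. At day 28 in ATLD organoids the log2 changes of Notch1, Notch2 and Notch3 were -0.81 ± 0.43, -0.95 ± 0.37 and -0.85 ± 0.42 (SE, adjusted p = 0.168, 0.065 and 0.146). With a GC offset all 3 passed (-0.949, -1.013 and -1.001, adjusted p = 0.027, 0.0331 and 0.0176), as they did with the GC and length offset. Notch2 also passed with DESeq2, and Notch2 and Notch3 with no filter on low counts. Without ATLD day 28 replicate 3, Notch2 and Notch3 passed (-1.42 and -1.34, adjusted p = 0.0123 and 0.0386), as did Notch2 without ATLD day 0 replicate 3 (-1.27, adjusted p = 0.0127). All 4 receptors have over 8000 exonic bases. The ATLD against WT differences of Notch1, Notch2 and Notch3 were below 0 at all 3 days, and those of Notch4 were -0.88, 0.64 and 0.23. The genes of at least 8000 bases had a median ATLD against WT log2 difference of -0.37 at day 0, -0.42 at day 14 and -0.45 at day 28. For genes under 2000 bases the medians were 0.18, 0.16 and 0.06. Of those long genes, 45.9%, 51.1% and 53.4% were called lower at the 3 days. With offsets for GC content and length, chosen after seeing the data, Notch1 differed by -0.28, -0.44 and -1.11 (adjusted p = 0.402, 0.165 and 0.00169). Notch2 differed by -0.57, -0.42 and -1.15 (adjusted p = 0.132, 0.255 and 0.00391), and Notch3 by -0.79, -0.79 and -1.46 (adjusted p = 0.025, 0.022 and 0.000229). The part of the length trend in the result without offsets was not tested. In the original libraries with no batch term, the calls of Notch1 and Notch3 at day 14 (-0.41 and -0.69, adjusted p = 0.394 and 0.146) and of Notch2 and Notch3 at day 0 (-0.71 and -0.74, adjusted p = 0.104 and 0.133) were lost. Notch1 shares 1226 exonic bases with the antisense gene 0610009E02Rik (5 to 41 counts per library, against 3123 to 16478 for Notch1), Notch2 shares 541 with Gm42820 (1 to 24 counts) and Notch3 shares 628 with the antisense gene Gm17276 (0 to 17 counts).

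**Figure D3:**
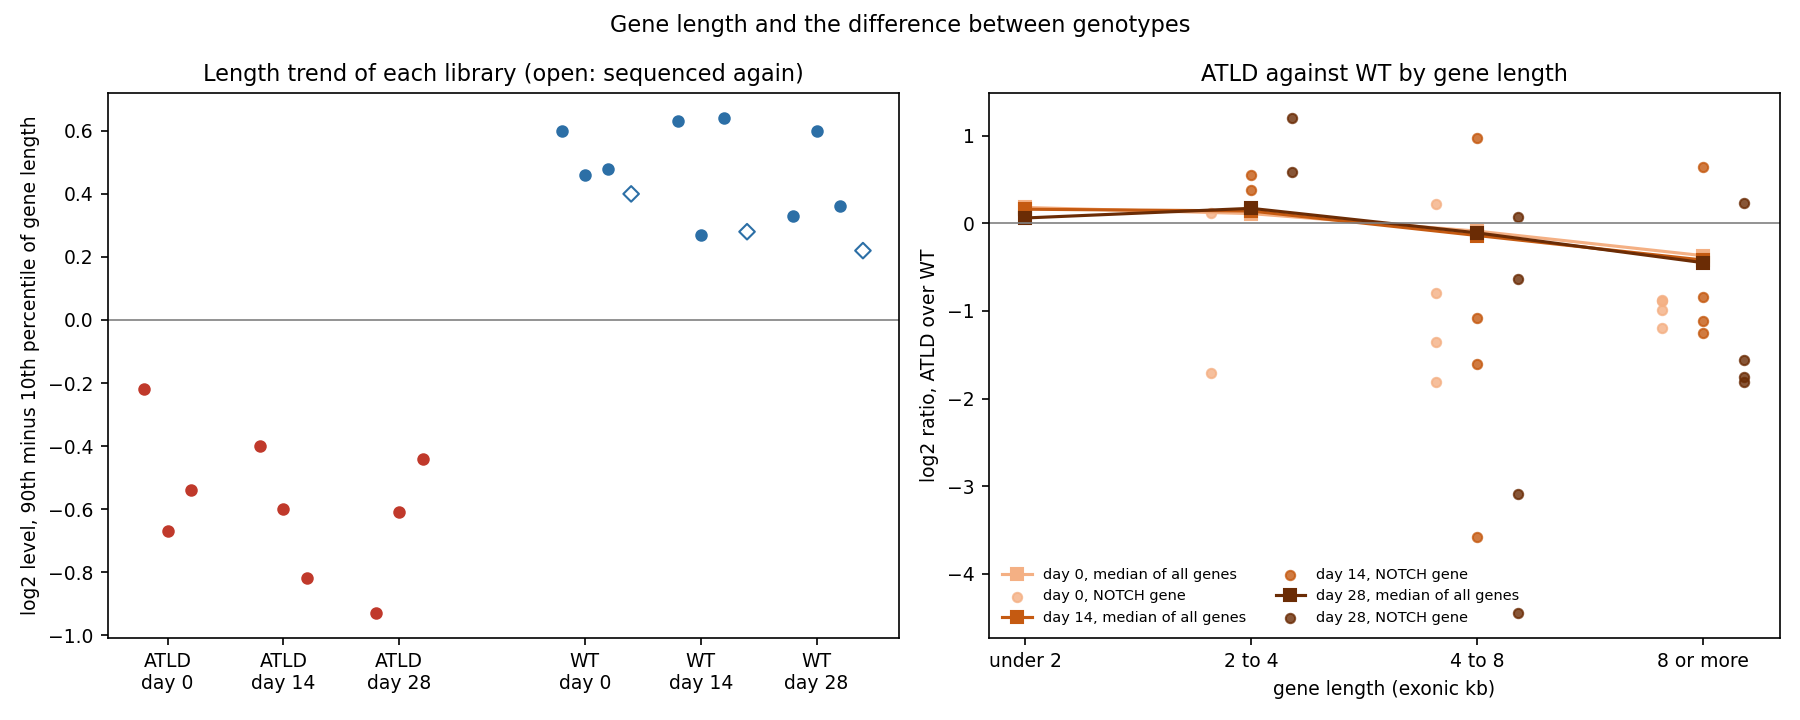
Left, the trend of log2 level with exonic length (90th minus 10th percentile, y axis) in each library, ATLD in red left of WT in blue; right, the median ATLD against WT log2 difference of all genes by exonic length, with the members as points. All ATLD libraries lie at or below -0.22 and all WT libraries at or above 0.22, and genes of at least 8000 bases have medians of -0.37 to -0.45.

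Notch4 (ENSMUSG00000015468, chromosome 17, 34564268 to 34588503, plus strand) was the receptor with the lowest level. It was the only one of the 4 called against day 0 in the fit of all 18 original libraries without offset. In ATLD organoids it had 1.01, 0.474 and 0.660 CPM at day 0, 1.64, 1.51 and 1.82 CPM at day 14, and 1.82, 1.23 and 2.05 CPM at day 28. The WT libraries had 1.06, 1.32 and 1.04 CPM at day 0, 0.751, 1.11 and 0.758 CPM at day 14, and 1.51, 0.959 and 1.35 CPM at day 28. A second run of WT replicate 1 gave 1.31, 1.18 and 1.31 CPM. The ATLD libraries of day 14 and day 28 lie above those of day 0, and the WT days overlap. Notch4 was 1.21 ± 0.27 higher on the log2 scale at day 14 and 1.24 ± 0.27 higher at day 28 than at day 0 in ATLD organoids (SE, adjusted p = 0.00563 and 0.00206). For Notch4, the change since day 0 differed between the genotypes by 1.59 ± 0.38 at day 14 (adjusted p = 0.00529) and by 1.06 ± 0.38 at day 28 (adjusted p = 0.044). That day 28 call was lost when any one of 9 of the 12 libraries of those days was left out (0.84 to 1.12, adjusted p 0.0626 to 0.118). Against WT, Notch4 in ATLD lay at -0.88 ± 0.29, 0.64 ± 0.27 and 0.23 ± 0.27 for day 0, day 14 and day 28 (adjusted p = 0.0145, 0.0447 and 0.479). In the second batch alone it was -0.82, 0.55 and 0.41 (adjusted p = 0.0925, 0.231 and 0.368). The day 0 call was lost without ATLD day 0 replicate 2 or WT day 0 replicate 1 (-0.94 to -0.65, adjusted p 0.0735 to 0.081). With GC and length offsets it lay at -0.39, 1.08 and 0.63 (adjusted p = 0.168, 0.000314 and 0.0184), so that the day 0 call was lost and day 28 was called. Without the 3 WT libraries that stand apart in GC trend, 2 of which are the lower WT values of day 14, the day 14 difference was 0.57 (adjusted p = 0.0671). The day 14 call was also lost without any ATLD library or WT replicate 1 or 3 of that day (0.58 to 0.72, adjusted p 0.0502 to 0.131). Endothelial cells are known to express Notch4, and their markers summed to 23.3 to 47.2 CPM in the ATLD libraries, against 19.5 to 36.5 CPM in the original WT libraries, over 14 genes of which 4 to 6 reached 1 CPM. Flt1, Egfl7 and Ecscr were among those that did. Flt1 averaged 22.8, 32.7 and 17.7 CPM in ATLD organoids, against 8.24, 7.90 and 6.19 CPM in WT organoids. Ecscr averaged 6.31, 4.47 and 3.75 CPM in ATLD, against 3.78, 14.9 and 15.1 CPM in WT. Egfl7 averaged 1.98, 1.66 and 2.22 CPM in ATLD, against 1.52, 3.3 and 3.26 CPM in WT. For Erg the means were 0.404, 0.538 and 0.78 CPM in ATLD, against 3.48, 3.0 and 4.39 CPM in WT. For Pecam1 they were 1.45, 1.76 and 2.01 CPM in ATLD, against 0.97, 1.59 and 1.67 CPM in WT. Cdh5, Tie1, Emcn and Cldn5, further genes of that list, did not exceed 0.202 CPM in any library. Kdr, which encodes a VEGF receptor of endothelial cells, averaged 0, 0.0606 and 0.112 CPM in ATLD organoids, against 0.15, 0.427 and 0.33 CPM in WT organoids. It was called higher at day 14 and day 28 than at day 0 in both genotypes (adjusted p = 0.0126 and 0.000693 in ATLD, 0.0037 and 0.0292 in WT). The part of endothelial cells in the Notch4 result was not tested.

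Counted over the members, ATLD organoids had 2 called genes at day 14 against day 0, both higher (Hey1 and Notch4), when 11.7% of all genes were called, 5.18% higher and 6.49% lower. At day 28 against day 0 they had 6, of which 4 were higher (Hey1, Dll1, Notch4 and Hes1) and 2 lower (Jag1 and Jag2). Of all genes, 29.8% were called, 14.1% higher and 15.7% lower. At day 28 against day 14 they had 4, with Hey1 and Dll1 higher and Jag1 and Heyl lower. Of all genes, 17.3% were called, 8.25% higher and 9.05% lower. In WT organoids 3 members were called at day 14 and the same 3 at day 28 (Jag1 higher, Hey1 and Dll1 lower), shares near the 30.3% and 24.7% of all genes. Those shares divide into 15.2% higher and 15.1% lower at day 14, and 12.3% higher and 12.4% lower at day 28. Between day 28 and day 14, 1 member was called in WT organoids (Hey1), when 0.905% of all genes were called, 0.53% higher and 0.375% lower. That count was 3 without WT day 14 replicate 2, and 0 without WT day 14 replicate 1 or 3 or WT day 28 replicate 1 or 3. Leaving out ATLD day 0 replicate 1 left 3 calls of the members at day 28 in ATLD organoids, and leaving out ATLD day 28 replicate 3 gave 9. The day comparisons of a genotype share their day 0 libraries.

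Against WT, 7 members were called at day 0, all of them lower in ATLD organoids (Dll1, Hey1, Jag2, Notch3, Notch2, Notch4 and Jag1), when 55.6% of all genes were called, 26.1% higher and 29.5% lower. At day 14, 9 members were called, 4 higher and 5 lower, when 65.1% of all genes were called, 30.1% higher and 35% lower. At day 28, 7 members were called, 2 higher (Hey1 and Hes1) and 5 lower (Jag2, Jag1, Notch3, Notch1 and Notch2), when 64.2% of all genes were called, 29.3% higher and 34.9% lower. At day 28 the share over all genes is close to that of the members. The median log2 difference of the 10 members was -0.94, -0.96 and -1.10 at the 3 days, against -0.04, -0.07 and -0.05 over all genes tested. Genes of at least 8000 exonic bases, which include the receptors, had medians of -0.37, -0.42 and -0.45. Those of 4000 to 8000 bases had -0.09, -0.14 and -0.11. The part of the length trend in the members' medians was not tested. The day 0 count of called members was 2 to 8 when 1 replicate was left out. It was 2 without ATLD day 0 replicate 2 or without both runs of WT day 0 replicate 1, and 3 without ATLD day 0 replicate 3. The day 14 count was 4 without both runs of WT day 14 replicate 1. The change since day 0 differed between the genotypes for 3 members at day 14 (Hey1, Jag2 and Notch4) when 21.3% of all genes did, 10.8% higher and 10.6% lower in ATLD. At day 28 it differed for 6 (Hey1, Jag1, Jag2, Dll1, Hes1 and Notch4) when 27.5% of all genes did, 13.5% higher and 14% lower.

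**Figure D4:**
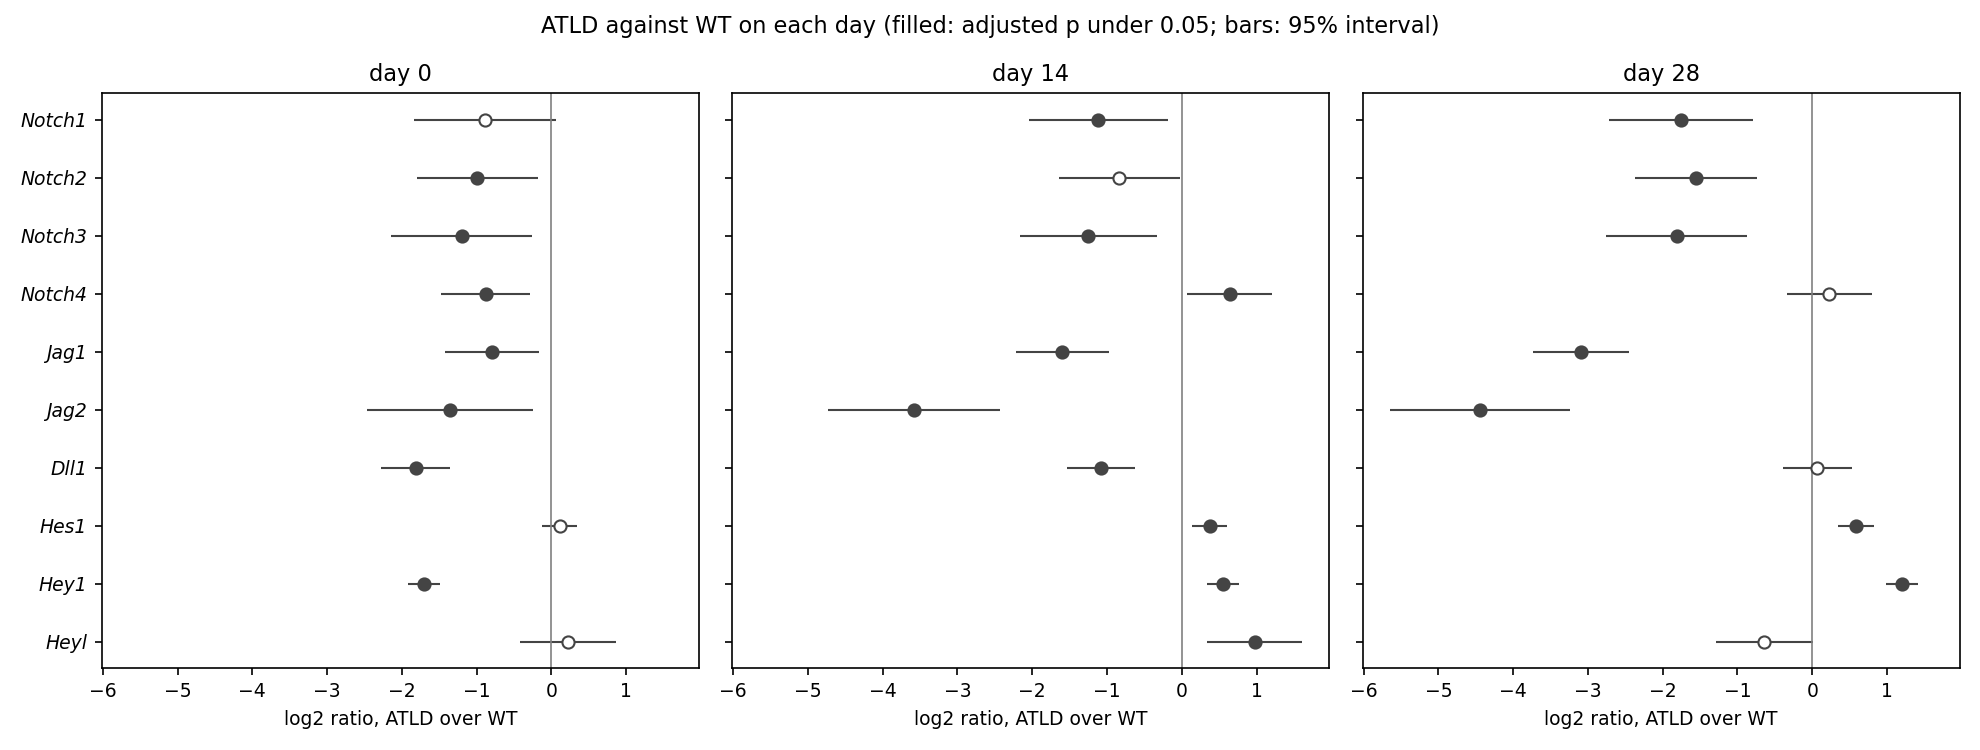
Log2 difference of ATLD against WT (x axis) for the 10 members (rows) at day 0, day 14 and day 28 (panels), with 95% intervals; filled points have an adjusted p under 0.05. Jag2 lies at -1.35, -3.58 and -4.45 and Hey1 at -1.70, 0.56 and 1.20 over the 3 days.

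Of 47 other NOTCH pathway genes in 6 lists, 38 had enough counts to be tested. In ATLD organoids 1 was higher and 4 were lower at day 14 against day 0, and 5 were higher and 6 lower at day 28, when 11.7% and 29.8% of all genes were called. In WT organoids 8 were higher and 6 lower at day 14, and 8 were higher and 5 lower at day 28, when 30.3% and 24.7% of all genes were called. Between the genotypes, 4 were higher and 15 lower in ATLD organoids at day 0, 8 higher and 18 lower at day 14, and 9 higher and 17 lower at day 28, with median log2 differences of -0.39, -0.55 and -0.54. Over all genes, 26.1% were higher and 29.5% lower at day 0, 30.1% and 35% at day 14, and 29.3% and 34.9% at day 28. Of the 10 genes of receptor cleavage, 3 were higher and 3 lower at day 28. Of the 6 genes of the nuclear complex, 5 were lower at day 14 and 5 at day 28, and the lists were not tested against each other. The part of the length trend in these counts was not tested.

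Hey2, a repressor of the HEY family, and the ligand Dll4 also changed differently in the 2 genotypes. Hey2 averaged 8.25 ± 0.27, 17.6 ± 1.7 and 11.4 ± 0.3 CPM in ATLD organoids at day 0, day 14 and day 28, against 9.58 ± 0.27, 1.03 ± 0.13 and 2.20 ± 0.56 CPM in WT organoids (SD, n = 3 each). It was 4.05 ± 0.19 higher in ATLD than in WT organoids at day 14 and 2.17 ± 0.18 higher at day 28 on the log2 scale (SE, adjusted p = 2.16e-12 and 4.86e-09). Dll4 averaged 1.20 ± 0.09, 0.941 ± 0.196 and 1.57 ± 0.19 CPM in ATLD organoids, against 2.48 ± 0.27, 0.339 ± 0.021 and 0.309 ± 0.082 CPM in WT organoids. On the log2 scale it was lower in ATLD at day 0 (-1.16 ± 0.19, SE, adjusted p = 7.3e-05). It was higher at day 14 (1.43 ± 0.23, adjusted p = 2.47e-05) and day 28 (2.30 ± 0.22, adjusted p = 5.81e-08). Numb, an inhibitor of NOTCH signalling, averaged 113, 113 and 139 CPM in ATLD organoids, against 200.4, 81.1 and 87.3 CPM in WT organoids, where it fell by 1.30 ± 0.12 at day 14 and by 1.20 ± 0.12 at day 28 (adjusted p = 2.13e-07 and 7.45e-07). Rbpj averaged 50.4, 48.0 and 49.1 CPM in ATLD organoids, against 66.5, 123 and 102 CPM in WT organoids, where it was 0.89 ± 0.12 higher at day 14 than at day 0 (adjusted p = 1.8e-05).

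Dtx4, which encodes a ubiquitin ligase of the Deltex family, fell in both genotypes. It averaged 49.9, 26.0 and 12.5 CPM in ATLD organoids and 21.2, 7.42 and 6.83 CPM in WT organoids, and its log2 change at day 28 against day 0 was -1.99 ± 0.10 in ATLD and -1.63 ± 0.10 in WT organoids (SE, adjusted p = 1.29e-09 and 1.81e-09). Neurl1b, whose product is a ubiquitin ligase that acts on NOTCH ligands, averaged 9.66, 3.93 and 2.94 CPM in ATLD organoids, against 14.7, 14.6 and 15.2 CPM in WT organoids. It was lower in ATLD by -2.19 ± 0.15 at day 14 and by -2.59 ± 0.16 at day 28 (adjusted p = 5.36e-10 and 7.68e-11). Psenen, a subunit of gamma-secretase, averaged 44.7, 47.1 and 59.6 CPM in ATLD organoids, against 22.5, 18.8 and 20.6 CPM in WT organoids, with a log2 difference of 0.81 ± 0.15 at day 0 and 1.27 ± 0.15 at day 28 (adjusted p = 0.000163 and 4.83e-07). With GC and length offsets these were 0.18 and 0.68, both called, and without WT day 0 replicate 1 the day 0 difference was 0.60.

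Markers of the mammary cell types moved with the groups. The 10 luminal progenitor markers summed to 23970 to 29130 CPM at day 0, 22600 to 26850 CPM at day 14 and 44940 to 50630 CPM at day 28 in ATLD libraries, against 13390 to 13840, 537 to 692 and 622 to 872 CPM in original WT libraries, with 9 of 10 at 1 CPM or more in every group. The luminal progenitor markers did not all follow their sum. At day 28 against day 0 in ATLD organoids, Cd14, Lcn2, Csn3, Ltf, Mfge8 and Aldh1a3 were called higher. Kit was called lower (log2 -0.87, adjusted p = 0.00499, edgeR), and Elf5 (0.08) and Wfdc18 (-0.14) were not called. The 12 basal and myoepithelial markers summed to 4356 to 4884, 2963 to 3212 and 2287 to 2613 CPM in ATLD libraries. They summed to 3070 to 3791, 5625 to 11960 and 6179 to 10790 CPM in original WT libraries, and to 4176, 12140 and 11640 CPM in resequenced ones. All 12 reached 1 CPM in the original WT libraries of day 0, but 9 to 10 at day 14 and 10 at day 28. Fewer of the genes thus reached 1 CPM where the WT sum was higher. In ATLD libraries 11, 10 and 11 did. The lower WT sums of day 14 (5806 and 5625 CPM, against 11960) and day 28 (6179 CPM, against 10790 and 10680) belong to the 3 libraries that stand apart in GC trend. The 11 fibroblast markers summed to 534 to 688, 861 to 1251 and 794 to 1009 CPM in ATLD libraries at the 3 days, against 949 to 1024, 1244 to 2473 and 1935 to 2581 CPM in original WT libraries, with 4 to 6 genes at 1 CPM or more. The hormone-sensing luminal markers summed to 134 to 214 CPM in ATLD libraries, against 453 to 773 CPM in WT libraries. Of these, Foxa1, Esr1 and Cited1 were called lower in ATLD at all 3 days. Others went the other way: Prlr was called higher at day 14 and day 28, Areg at day 14 and Tnfsf11 at day 0. The 9 pericyte and mural markers summed to 340.2 to 587.5 CPM in ATLD libraries, against 280.8 to 519 CPM in original WT libraries and 360.3 to 566.1 CPM in resequenced ones. Only 2 to 5 of these 9 genes reached 1 CPM in a library. Most of the sum was Anpep and Mcam, which averaged 168 to 423 and 48.5 to 130 CPM over the 6 groups. Pdgfrb averaged 0.533, 0.745 and 0.738 CPM in ATLD organoids, against 6.94, 2.2 and 3.69 CPM in WT organoids. Rgs5, Cspg4, Kcnj8, Abcc9 and Higd1b averaged under 1 CPM in every group. The macrophage and lung epithelium markers summed to at most 30.2 CPM in any library. The part of these cell types in the results on the members was not tested.

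The genes most like each member were sought among 11284 genes by the mean absolute difference of centred log2 CPM over the 6 group means, which come from 18 libraries. Hey1 was most like Cd200 (0.24) and Igfbp7 (0.24), Jag1 most like Robo2 (0.15) and Slc22a21 (0.18), and Jag2 most like B4galnt4 (0.13) and Pltp (0.17). Dll1 was nearest to Tle2 (0.15) and Etv5 (0.18), and Heyl to Gbp7 (0.12) and Herc6 (0.13). Notch4 was nearest to Pabpc1l (0.14) and Neu3 (0.15), Notch1 to Setd1b (0.06) and Abca2 (0.08), Notch2 to Macf1 (0.07) and Cep152 (0.08), and Notch3 to Ppp1r26 (0.09) and Cep152 (0.09). Hes1, whose group means span 0.69 log2 units, was nearest to Srp54c and Pdxdc1 (0.03 each), which says only that all 3 varied little.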

How the data were processed

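Raw counts of reads per gene ID were deposited by the authors as 1 table of 21 libraries, with gene length as a further column whose values are of another kind; per the submitters' processing notes, featureCounts and DESeq2 were used with mm10. No source used here gives the aligner, the tool versions or the strand setting of the counting, although the labels' protocols name a stranded kit, so overlapping and antisense genes are uncertain. From these counts, edgeR 4.0.16 (R 4.3.3, limma 3.58.1) fitted quasi-likelihood models with TMM scaling, filterByExpr (minimum count 10, minimum total 15) and a prior count of 0.125, and p-values were adjusted by Benjamini-Hochberg over all genes, with calls at an adjusted p under 0.05. Day comparisons and the genotype difference in change used the 18 original libraries (18684 genes). ATLD against WT used all 21 libraries (18844 genes) with a term for sequencing batch, since replicate 1 of each WT day was sequenced in both batches. This fit entered both runs of WT replicate 1 as separate libraries, with nothing to link runs of the same sample. Its p-values therefore treat 21 libraries from 18 samples as independent and may be too small. The limma voom alternative linked such runs by a block for culture. The batch term called 44 genes, none of them a member. Its log2 estimates for the members still ranged from -0.04 (Jag1) to 0.62 (Notch1) and 0.69 (Jag2). Levels are CPM with TMM scaling over 21 libraries, counted once per sample in means. The second batch alone has 1 WT library a day, so its spread is taken from all its groups.

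The members and lists were chosen with earlier results of these data known. Besides the 10 members, the text names from the pathway lists genes that were called with the largest log2 change, up to 4 per direction and comparison, and the 2 genes most like each member by the measure given there (mean log2 CPM of at least 1, prior count 2). All 55536 gene IDs matched GENCODE vM21 with equal coordinates. Alternatives were median-of-ratios scaling, no filter, DESeq2 1.42.0, the compared groups alone, a replicate block, limma voom, no batch term and the second batch alone. Others were resequenced runs in place of the originals, a GC offset, leaving out the 3 libraries with the GC trend, and leaving out each replicate. A GC and length offset was added after seeing the data. In ATLD against WT, leaving out a WT replicate 1 removed both of its runs. No WT library of that day then remained in the second batch. The fits were tested on simulated data.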

Additional observations from a re-analysis of the deposited data

Results flagged for a closer look

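The change since day 0 differed between ATLD and WT organoids, by a test of the difference itself in edgeR, for the following genes. The values are the ATLD change minus the WT change on the log2 scale. Among the members at day 14 it was 2.28 for Hey1, -2.15 for Jag2 and 1.59 for Notch4. Among the members at day 28 it was 2.91 for Hey1, -3.16 for Jag2, -2.29 for Jag1, 1.86 for Dll1, 1.06 for Notch4 and 0.47 for Hes1. The calls of Jag2 at day 14 and of Notch4 and Hes1 at day 28 were each lost when 1 library was left out: Jag2 lay between -2.28 and -1.17 (adjusted p 0.0535 to 0.115) without any one of 9 libraries, the lowest in size without WT day 14 replicate 2, and Hes1 lay between 0.35 and 0.47 (adjusted p 0.0613 to 0.0989) without any one of 8.

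Among other pathway genes at day 14 the difference was 4.3 for Hey2, 2.52 for Dll4, 1.31 for Numb, 0.95 for Psen2, -4.6 for Dlk2, -1.28 for Neurl1b, -0.96 for Rbpj and -0.62 for Adam17. At day 28 it was 3.37 for Dll4, 2.59 for Hey2, 1.5 for Numb, 0.55 for Psenen, -3.11 for Dlk2, -2.11 for Neurl1a, -1.76 for Neurl1b and -1.01 for Dtx3l. The calls of Psen2 at day 14 and of Psenen and Dlk2 at day 28 were lost when 1 library was left out (adjusted p up to 0.101, 0.0954 and 0.165). Dlk2 was near the floor, so its large values rest on few counts. It averaged 0.853, 0.0530 and 0.0751 CPM in ATLD organoids at the 3 days, against 0.316, 0.504 and 0.231 CPM in WT organoids. Its ATLD libraries of day 14 lay between 0 and 0.111 CPM.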

How the results depend on the processing

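Of the 51 calls on members, 32 passed under every alternative that was run, and 50 kept their sign. The 1 exception in sign was Hes1 in ATLD against WT at day 14, at -0.10 with the GC and length offset, chosen after seeing the data. Hes1 at day 0, which was not called, turned to -0.31 with that offset, and the cause was not tested.

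Counts of called genes moved by over 1.5 times as follows, and the cause was not tested. For ATLD day 14 against day 0 (2180 genes) the GC offset gave 3436 and the GC and length offset 3712. For ATLD day 28 against day 14 (3232) the GC and length offset gave 5182 and the replicate block 1975. For WT day 28 against day 14 (169) the compared groups alone gave 0, DESeq2 312, the GC offset 273, the GC and length offset 336, the replicate block 55, the resequenced runs 94 and leaving out the 3 libraries with the GC trend 38. Members called in ATLD at day 28 against day 0 (6) became 10 with either offset. Members called in ATLD against WT at day 0 (7) became 4 with no batch term and 3 with the replicate block or the second batch alone. The 1 member called in WT between day 28 and day 14 became 0 with the compared groups alone, no filter, the replicate block, the resequenced runs or without the 3 libraries.

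Leaving out 1 library gave 1629 to 1901 genes for ATLD day 14 against day 0, 2202 to 2677 for ATLD day 28 against day 14, 62 to 3817 for WT day 28 against day 14 and 4456 to 8242 for WT day 14 against day 0, the highest of the last pair without WT day 14 replicate 2. For ATLD against WT at day 0, leaving out 1 replicate gave 6927 to 10784 genes, the lowest without both runs of WT replicate 1. Members called then numbered 3 to 9 for ATLD day 28 against day 0, 2 to 8 for ATLD against WT at day 0, 4 to 9 at day 14 (4 without WT day 14 replicate 1) and 0 to 3 for WT day 28 against day 14. For the change that differs between genotypes they numbered 2 to 4 at day 14 and 4 to 6 at day 28.

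Replicate numbers were checked for pairing by correlating the deviations of libraries from their group means. By this measure 1 of 9 same-numbered ATLD pairs and 3 of 9 WT pairs correlated above 0.1, and 3 of 18 libraries correlated best with their own number. The highest WT value, 0.56, joined day 14 replicate 1 and day 28 replicate 2, which both stand apart in GC trend. Since such trends enter the deviations, the check cannot show whether equal numbers share a culture.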
